A study of Homo sapiens with 6 samples.

Results

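The clustered protocadherins are cell surface cadherins whose genes stand side by side in 3 clusters, alpha, beta and gamma, on chromosome 5. They were taken as every row of the count table whose symbol belongs to one of these clusters, which gave 49 of 34811 rows, 11 of the alpha, 17 of the beta and 21 of the gamma cluster. RNA-seq compared OV3/COX1KD with OV3/SCR cells, in 3 libraries per condition. Both are stable, puromycin-selected derivatives of OVCAR-3, an established human ovarian carcinoma line, and carry a pRS shRNA HuSH-29 plasmid, with a scrambled shRNA in OV3/SCR and an shRNA against COX-1, the cyclooxygenase encoded by PTGS1, in OV3/COX1KD. Each condition was 1 clone sampled as 3 separately harvested populations, so effects of knockdown and of clone cannot be told apart, and the p-values measure the spread between populations of a clone. Both conditions share the plasmid and its selection, and no OVCAR-3 cells without a plasmid were analysed here.

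Clustered protocadherins are best known from neurons. Each alpha or gamma mRNA joins a single variable exon, which encodes the extracellular cadherin repeats, the membrane span and the first part of the tail, to constant exons shared by its whole cluster, whereas each beta gene is essentially a single exon. In most neurons a few isoforms are chosen by switching on a few variable-exon promoters, and the proteins bind the same isoform on the opposite cell, giving neurons an identity by which their branches avoid each other. The last variable exons of the alpha and gamma clusters are called C-type (PCDHAC1, PCDHAC2, PCDHGC3, PCDHGC4 and PCDHGC5), and in neurons they are expressed more constitutively. Most of the promoters carry a conserved element with the core CGCT, and CTCF and cohesin, which fold the chromosome, connect promoters to distant enhancers, while DNA methylation and SMCHD1 keep them silent.

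The promoters below are those of PCDHGC3, the member with the most counts and the only one whose change passed the test, of its neighbour PCDHGC4, which was almost without counts, and of 4 other members described below (PCDHGB4, PCDHGA4, PCDHA4 and PCDHB9). Each window runs from 250 bases before to 50 bases after the transcription start in RefSeq, which can differ from the gene starts of the annotation used elsewhere in the text, was read from RefSeq sequences (GRCh38.p14) and was placed on GRCh37 by exact match. All 6 are on the plus strand, at chr5:140855283-140855582 for PCDHGC3, chr5:140864347-140864646 for PCDHGC4, chr5:140767015-140767314 for PCDHGB4, chr5:140734338-140734637 for PCDHGA4, chr5:140186403-140186702 for PCDHA4 and chr5:140566485-140566784 for PCDHB9. Capitals mark CGCT on either strand, so that AGCG is in capitals too.
PCDHGC3: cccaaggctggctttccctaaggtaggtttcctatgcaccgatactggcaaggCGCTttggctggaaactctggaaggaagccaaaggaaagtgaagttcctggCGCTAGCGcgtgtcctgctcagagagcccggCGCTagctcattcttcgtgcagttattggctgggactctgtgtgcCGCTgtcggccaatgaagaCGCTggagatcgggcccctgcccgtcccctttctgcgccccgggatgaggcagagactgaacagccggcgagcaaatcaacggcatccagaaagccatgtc
PCDHGC4: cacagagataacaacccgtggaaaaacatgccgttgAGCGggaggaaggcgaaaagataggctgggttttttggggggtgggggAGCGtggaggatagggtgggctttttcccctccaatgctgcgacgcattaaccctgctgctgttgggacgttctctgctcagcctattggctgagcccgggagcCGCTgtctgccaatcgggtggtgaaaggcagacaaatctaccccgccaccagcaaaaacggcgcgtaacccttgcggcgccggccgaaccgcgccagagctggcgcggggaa
PCDHGB4: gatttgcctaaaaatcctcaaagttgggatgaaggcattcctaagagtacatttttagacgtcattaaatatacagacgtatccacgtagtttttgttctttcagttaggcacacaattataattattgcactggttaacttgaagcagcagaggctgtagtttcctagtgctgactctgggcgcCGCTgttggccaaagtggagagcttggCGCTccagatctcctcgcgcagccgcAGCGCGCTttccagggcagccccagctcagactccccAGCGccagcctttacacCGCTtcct
PCDHGA4: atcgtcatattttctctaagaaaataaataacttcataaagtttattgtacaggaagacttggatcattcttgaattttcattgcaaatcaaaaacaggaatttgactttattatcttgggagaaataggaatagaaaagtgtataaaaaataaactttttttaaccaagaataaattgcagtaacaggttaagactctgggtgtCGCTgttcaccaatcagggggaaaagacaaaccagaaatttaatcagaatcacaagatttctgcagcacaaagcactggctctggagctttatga
PCDHA4: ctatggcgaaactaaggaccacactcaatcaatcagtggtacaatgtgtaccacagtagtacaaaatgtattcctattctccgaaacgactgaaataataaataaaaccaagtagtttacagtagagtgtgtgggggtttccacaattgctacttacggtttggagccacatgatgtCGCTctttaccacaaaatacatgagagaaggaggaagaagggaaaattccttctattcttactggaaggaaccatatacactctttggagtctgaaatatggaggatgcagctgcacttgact
PCDHB9: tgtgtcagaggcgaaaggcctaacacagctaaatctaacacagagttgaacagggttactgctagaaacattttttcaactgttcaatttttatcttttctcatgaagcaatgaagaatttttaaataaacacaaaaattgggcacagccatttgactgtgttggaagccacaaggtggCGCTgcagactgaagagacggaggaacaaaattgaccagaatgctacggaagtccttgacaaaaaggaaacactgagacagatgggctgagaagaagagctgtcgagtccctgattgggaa

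A promoter sequence was matched for 42 of the 49 members. CGCT was found on either strand in 41 of these 42 members, PCDHA9 being the exception, and in 70.01% of all 35116 promoters of the same length. The PCDHGC3 window held 6 matches, the PCDHGB4 window also 6, and the windows of PCDHA4 and PCDHB9 1 each. PCDHGC3 and PCDHGC4 were rich in CG pairs, with 18 and 23, against a median of 7.5 over the members and of 14 over all promoters, so that the most and one of the least counted members of the gamma cluster both had CG-rich windows. In the PCDHGC3, PCDHGC4, PCDHGB4 and PCDHGA4 windows a CGCT was followed at the same spacing by CCAA, an element written CGCTNNNNNCCAA and including the CGCT. This longer element was chosen after the sequences had been read. It was present in 9 of 19 gamma members, in 0 of 10 alpha and 0 of 13 beta members with a promoter sequence, and in 0.83% of all promoters. In PCDHGC3 it began 70 bases before the RefSeq start, and in PCDHGC4 62 bases before. A core of the CTCF motif, searched on both strands as CCNNNAGNNGGC, was present in 1 member, PCDHB9, where it overlaps the CGCT, and in 10.58% of all promoters. These were the 3 motifs searched, and a match describes the letters in the window only.

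Between 25291505 and 27391538 reads were counted on genes per library, and 3 counts, taken as the smallest detectable level, corresponded to 0.113 to 0.120 CPM (counts relative to library size, corrected with edgeR's TMM factors), a floor that covers counting error only. PTGS1 had 713, 658 and 641 counts in OV3/SCR and 456, 486 and 501 in OV3/COX1KD, a log2 fold change of -0.45 (SE 0.057, edgeR FDR 1.34e-06). All 10 epithelial and ovarian markers were tested and expressed, with summed counts of 149629 to 155500 in OV3/SCR and 189325 to 199894 in OV3/COX1KD, 8 of them higher and 2 (PAX8 and KRT7) lower in OV3/COX1KD. Of 10 neuronal markers, 7 had a row. Their summed counts were 902 to 933 in OV3/SCR and 470 to 498 in OV3/COX1KD, mostly MAP2, and SNAP25, STMN2, SYT1 and DCX never exceeded 4 counts. Summed counts were 339 to 352 against 232 to 240 for fibroblast markers, 44 to 59 against 30 to 48 for immune markers and 79 to 112 against 99 to 130 for endothelial markers. The part of these differences in the results below was not tested.

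Most clustered protocadherins were barely expressed in either clone. All 49 rows together had 225, 197 and 213 counts in OV3/SCR and 175, 166 and 173 in OV3/COX1KD. The count table held no row of any gene at 0 in all libraries, so the lack of such rows here says nothing about the family. Of the members, 25 never exceeded 3 counts in any of the 6 libraries (8 alpha, 9 beta and 8 gamma), and 7 of these had a single count over all 6 libraries. The other 24 (3 alpha, 8 beta and 13 gamma) exceeded 3 counts in at least 1 library, and 8 did so in all 6. Members that reached 10 counts in every library numbered 3, namely PCDHGC3, PCDHGB4 and PCDHGB7, all of the gamma cluster. Among all 34811 rows of the count table, 10568 never exceeded 3 counts in any library. For the 25 members at or under the floor, a difference was not detectable at this depth.

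**Figure D1:**
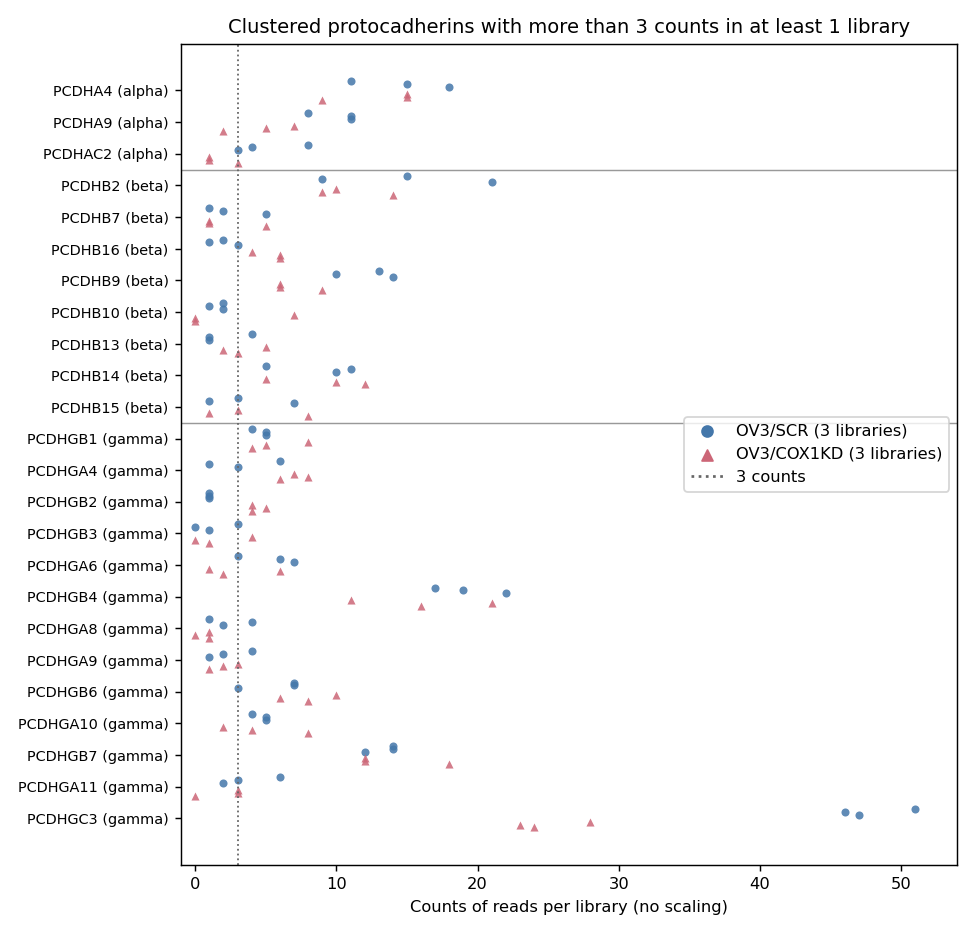
Counts of reads per library, without scaling, for the 24 clustered protocadherins with more than 3 counts in at least 1 library, with OV3/SCR libraries as circles and OV3/COX1KD libraries as triangles, and a dotted line at 3 counts. PCDHGC3 stands apart, with 46 to 51 counts in OV3/SCR and 23 to 28 in OV3/COX1KD, while the conditions of most other members overlap.

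The edgeR filter on low counts was passed by 7 members, 1 alpha, 3 beta and 3 gamma, and the other 42 had no test. Of all 34811 rows, 17309 passed this filter. PCDHGC3 was lower in OV3/COX1KD at an FDR under 0.01 and no member was higher. Over all 17309 genes tested, 47.9% passed this threshold, 22.1% lower and 25.8% higher. Among genes as scarce as the tested members (mean log2 CPM of -1.26 to 0.57, a range chosen after seeing the data) the share was 15.2%, so that 1 of 7 was close to this background. With the fold change above 2.5 that the study also required, 0 members and 3.92% of all genes passed. By edgeR, 1 of the 7 tested members and 62.5% of all genes tested had an unadjusted p under 0.05, and by DESeq2 PCDHGC3 also was the member called. Without the filter, 1 of the 49 members and 25% of all rows were called, and 4 members and 35.3% of all rows had an unadjusted p under 0.05. The median log2 fold change of the 7 tested members was -0.24, against -0.0087 over all genes tested.

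PCDHGC3 (ENSG00000240184, chr5:140855514-140892544) is a C-type gamma protocadherin that is also known from tissues outside the nervous system. It had 47, 46 and 51 counts in OV3/SCR and 24, 23 and 28 in OV3/COX1KD, the highest count of the family in each library. Every OV3/COX1KD library was below every OV3/SCR library. Its level was 1.83 ± 0.121 CPM (SD, n = 3) in OV3/SCR and 0.974 ± 0.0689 CPM in OV3/COX1KD, 1.87-fold lower, with a log2 fold change of -0.91 (SE 0.20, 95% interval -1.33 to -0.48, edgeR FDR 0.00071). Over 12 other normalizations, filters, tests and sets of libraries the log2 fold change lay between -0.98 and -0.85 and the FDR, by edgeR or DESeq2, between 0.000285 and 0.00528. None of the 50-base windows of its own exons recurred elsewhere in the clusters, and no annotated antisense exon covers it. The other C-type gamma row, PCDHGC4 (ENSG00000242419), had 1 count in all, in OV3/SCR replicate 2, and PCDHGC5 was not analysed here.

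The remaining gamma members were the A and B types, whose variable exons alternate along the cluster. PCDHGB4 had 22, 19 and 17 counts in OV3/SCR and 16, 21 and 11 in OV3/COX1KD, and the conditions overlapped (log2 fold change -0.24, SE 0.30, 95% interval -0.87 to 0.39, edgeR FDR 0.518). Of the 50-base windows of its own exons, 21.3% recurred elsewhere in the clusters, which leaves part of its count uncertain. PCDHGB7 had 12, 14 and 14 counts against 18, 12 and 12, also overlapping, with a log2 fold change of 0.10 (SE 0.32, 95% interval -0.57 to 0.77, edgeR FDR 0.803). For both, the interval stayed within a fold change of 2.5 in either direction.

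Scarcer gamma members were not tested, and some had more counts in OV3/COX1KD. PCDHGA4 had 3, 1 and 6 counts in OV3/SCR and 6, 8 and 7 in OV3/COX1KD. PCDHGB2 had 1 count in each OV3/SCR library and 4, 5 and 4 in OV3/COX1KD, just above the floor. PCDHGB6 had 3, 7 and 7 counts against 8, 6 and 10 and overlapped. In the fit without the filter the edgeR FDR was 0.0815 for PCDHGB2 and 0.179 for PCDHGA4, so that neither passed the threshold. The counts of PCDHGB1 (5, 5 and 4 against 4, 5 and 8), PCDHGA10 (5, 5 and 4 against 8, 4 and 2) and PCDHGA6 (7, 6 and 3 against 2, 6 and 1) showed no separation of the conditions. PCDHGB3, PCDHGA8, PCDHGA9 and PCDHGA11 exceeded 3 counts in at least 1 library, with 9 to 17 counts over all 6 libraries and overlapping conditions. PCDHGA1, PCDHGA2, PCDHGA3, PCDHGA5, PCDHGA7, PCDHGA12 and the pseudogene PCDHGB8P did not exceed 3 counts.

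In the alpha cluster PCDHA4 and PCDHA9 led and together took 75.6% of the 168 alpha counts. PCDHA4 (ENSG00000204967) had 18, 15 and 11 counts in OV3/SCR and 9, 15 and 15 in OV3/COX1KD, with overlapping conditions (log2 fold change -0.14, SE 0.33, 95% interval -0.83 to 0.55, edgeR FDR 0.733). PCDHA9 had 11, 11 and 8 counts against 2, 5 and 7. Every OV3/COX1KD library of PCDHA9 was below every OV3/SCR library, but the gene was outside the filter and its edgeR FDR without it was 0.113. Of the C-type alpha members, PCDHAC2 had 3, 4 and 8 counts in OV3/SCR and 3, 1 and 1 in OV3/COX1KD (edgeR FDR without the filter 0.169), and PCDHAC1 had 3, 1 and 0 against 1, 1 and 3. PCDHA6, the fifth by level, had 1 count in each OV3/SCR library and 0 in OV3/COX1KD. PCDHA1, PCDHA3, PCDHA5, PCDHA7, PCDHA10 and PCDHA11 also never exceeded 3 counts.

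Counts of the beta cluster were spread over more members, the leading pair, PCDHB2 and PCDHB9, taking 42.9% of 317. PCDHB2 (ENSG00000112852) had 21, 9 and 15 counts in OV3/SCR and 14, 9 and 10 in OV3/COX1KD, with a log2 fold change of -0.41 (SE 0.36, 95% interval -1.17 to 0.35, edgeR FDR 0.343). Exons of an annotated antisense gene cover 43.8% of its exon bases and 27.3% of its own 50-base windows recurred in the clusters, so its counts are uncertain. PCDHB9 (ENSG00000177839) had 14, 10 and 13 counts against 9, 6 and 6, without overlap, but its log2 fold change of -0.77 (SE 0.38, 95% interval -1.56 to 0.014, edgeR FDR 0.0851) did not pass the threshold. It was the only tested member without a call whose interval reached beyond a fold change of 2.5. Of the 50-base windows of PCDHB9's own exons, 23.2% recurred elsewhere in the clusters, which leaves part of its count uncertain. PCDHB14 had 10, 11 and 5 counts against 12, 10 and 5, nearly the same in both conditions (log2 fold change 0.086, SE 0.43, 95% interval -0.81 to 0.99, edgeR FDR 0.875). PCDHB16 had 3, 1 and 2 counts in OV3/SCR and 6, 6 and 4 in OV3/COX1KD (edgeR FDR without the filter 0.152), with 21.2% of its exon bases under antisense exons, and PCDHB15 had 7, 1 and 3 against 8, 1 and 3. The pseudogenes PCDHB18 and PCDHB19P had 3 counts and 1 count over all 6 libraries. PCDHB11 had 2 counts in each OV3/SCR library and 0 in OV3/COX1KD, under the floor in both. PCDHB3, PCDHB4, PCDHB5, PCDHB6, PCDHB8 and PCDHB12 did not exceed 3 counts either, and PCDHB7, PCDHB10 and PCDHB13, with 12 to 16 counts over all 6 libraries, exceeded the floor in at least 1 library and overlapped.

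Of the 24 members above the floor, 3 had OV3/COX1KD libraries all below the OV3/SCR libraries in CPM (PCDHGC3, PCDHA9 and PCDHB9) and 3 had them all above (PCDHB16, PCDHGA4 and PCDHGB2). Among all 24243 rows above the floor the shares were 25.5% and 25.1%. PCDHB16 and PCDHGB2 exceeded the floor only in OV3/COX1KD, so they entered this set through the condition in which they were higher. At counts this small libraries often tie, and whether the members differ from this background was not tested.

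**Figure D2:**
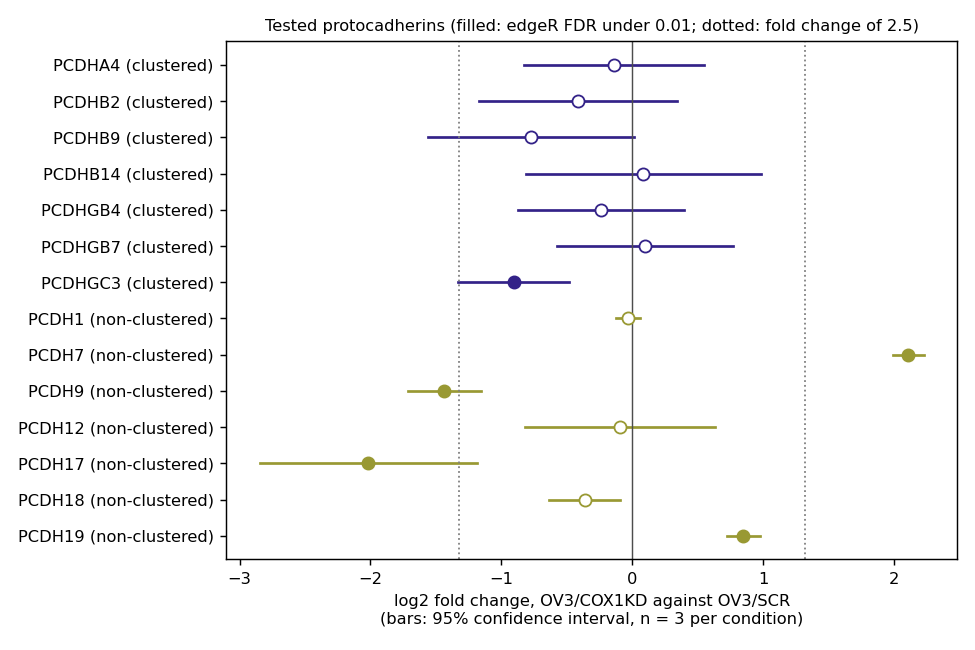
Log2 fold change of OV3/COX1KD against OV3/SCR for the 7 tested clustered protocadherins and the 7 tested non-clustered ones, with bars for the 95% confidence interval (n = 3 per condition), filled points for an edgeR FDR under 0.01 and dotted lines at a fold change of 2.5. PCDHGC3, at -0.91, is the only filled clustered member, while PCDH7, at 2.11, and PCDH17, at -2.02, lie beyond the dotted lines.

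Summed over each cluster, the alpha rows had 36, 34 and 33 counts in OV3/SCR and 15, 24 and 26 in OV3/COX1KD, or 1.31 ± 0.0373 and 0.843 ± 0.214 CPM (SD, n = 3), so that the OV3/COX1KD level was 64.3% of OV3/SCR. The conditions did not overlap. The gamma rows had 117, 118 and 128 counts against 97, 104 and 100, or 4.62 ± 0.293 and 3.92 ± 0.206 CPM, 84.8% of OV3/SCR, again without overlap. Without PCDHGC3, an alternative chosen after seeing the data, the gamma rows had 70, 72 and 77 counts against 73, 81 and 72, 106% of OV3/SCR and overlapping. The beta rows overlapped, with 72, 45 and 52 counts against 63, 38 and 47 (2.15 ± 0.501 and 1.93 ± 0.513 CPM). The whole family reached 82.8% of the OV3/SCR level with PCDHGC3 and 91.5% without it, and in the latter sum the conditions overlapped. These sums are descriptions and carry no test.

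**Figure D3:**
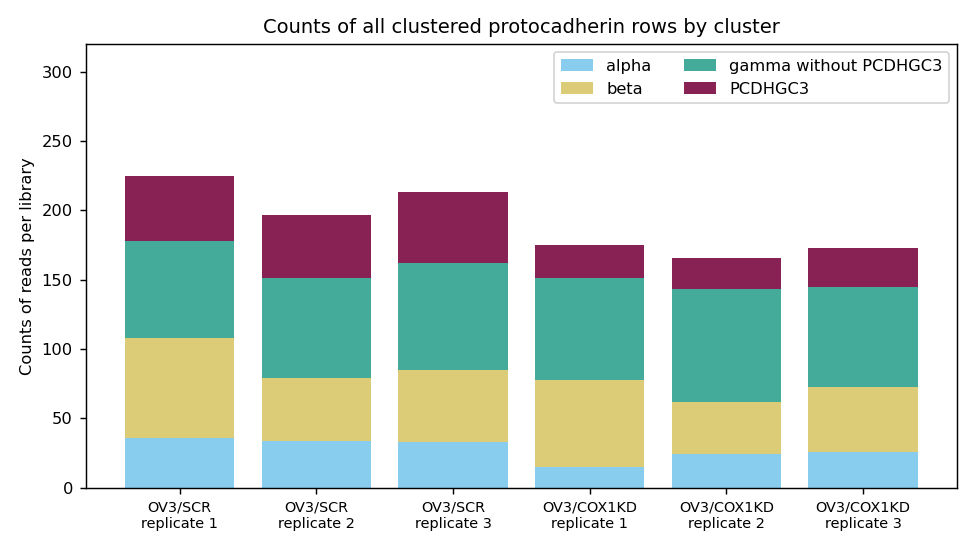
Counts of reads per library, without scaling, summed over the alpha rows, the beta rows, the gamma rows without PCDHGC3 and PCDHGC3 alone, as stacked bars for the 3 OV3/SCR and the 3 OV3/COX1KD libraries. The PCDHGC3 segment has 46 to 51 counts in OV3/SCR and 23 to 28 in OV3/COX1KD, and the other gamma rows have 70 to 77 and 72 to 81.

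The make-up of the clusters differed accordingly. PCDHGC3 took 40.2%, 39.0% and 39.8% of the gamma counts in OV3/SCR and 24.7%, 22.1% and 28.0% in OV3/COX1KD, without overlap. PCDHA4 took 42.5% ± 8.45 of the alpha counts in OV3/SCR and 60.1% ± 2.40 in OV3/COX1KD (SD, n = 3), shares that rest on 15 to 36 alpha counts per library. A share also moves when the other rows of its cluster move.

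Levels were compared between members per kb of coding sequence that no other gene's coding sequence covers (2327 to 2652 bases in the protein-coding members). On this scale PCDHGC3 led in OV3/SCR with 0.708 CPM per kb, followed by PCDHGB4 with 0.306, PCDHB2 with 0.239, PCDHA4 with 0.230, PCDHGB7 with 0.210, PCDHB9 with 0.197, PCDHA9 with 0.151 and PCDHB14 with 0.140. Exon bases covered by no other gene were far less even, with 2459 in PCDHGB4, 6308 in PCDHA9 and 10557 in PCDHA4. The order below PCDHGC3 therefore depends on the length chosen, and PCDHA4 and PCDHA9 would stand lower per kb of such exon bases. In OV3/COX1KD cells PCDHGC3 stood at 0.376 and PCDHGB4 at 0.261 CPM per kb. In OV3/SCR the count range of PCDHB2 overlapped those of PCDHGB4, PCDHA4 and PCDHGB7, and that of PCDHA4 overlapped those of PCDHGB4 and PCDHGB7. That of PCDHB9 overlapped those of PCDHB2, PCDHA4 and PCDHGB7. Those of PCDHA9 and PCDHB14 overlapped each other and those of PCDHB9, PCDHB2 and PCDHA4. The order within these pairs is not set by these data, whereas every PCDHGB4 count was above every PCDHGB7 count. The constant exons belong to all alpha or all gamma transcripts, and a median of 53.1% of the exon bases of an alpha row and 56.2% of a gamma row were its own, against 92.4% of a beta row. How reads in the shared exons were counted is not given in the sources used here, so the part of an alpha or gamma count that comes from them is unknown.

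Protocadherins outside the clusters are encoded by single genes, and some of them were far more abundant. PCDH19, which acts with classical cadherins in adhesion, was at 22.9 CPM per kb of own coding sequence in OV3/SCR, PCDH1, an epithelial protocadherin, at 16.1, and PCDH7 at 3.87, against 0.708 for PCDHGC3. Of 10 with a row, 7 were tested, with a median log2 fold change of -0.094. In OV3/COX1KD 2 were higher and 2 lower, against 25.8% and 22.1% of all genes. PCDH7 had 392, 403 and 414 counts in OV3/SCR and 1796, 1564 and 1749 in OV3/COX1KD, a log2 fold change of 2.11 (SE 0.057, edgeR FDR 1.84e-16). PCDH19 rose from 2057, 2063 and 2064 counts to 3826, 3037 and 4049 (log2 fold change 0.85, edgeR FDR 3.88e-10). PCDH9 and PCDH17 fell, PCDH9 from 157, 159 and 138 counts to 59, 52 and 53 (log2 fold change -1.44, edgeR FDR 1.45e-08) and PCDH17 from 16, 22 and 21 to 5, 2 and 7 (log2 fold change -2.02, edgeR FDR 2.15e-04). PCDH17 was about as scarce as the tested clustered members and still passed the threshold with its larger change.

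The CTCF and cohesin list and the silencing and DNA methylation list hold general chromatin genes, and whether each acts on the clusters was not tested. Of their genes, only CTCFL, the germline relative of CTCF, did not pass the filter, with 6 to 13 counts per library. Of 15 tested genes of the CTCF and cohesin list, 3 were higher and 2 lower, against 25.8% and 22.1% of all genes, with a median log2 fold change of 0.020. CTCF was at 93.1 ± 2.34 CPM in OV3/SCR and 95.5 ± 1.53 in OV3/COX1KD (SD, n = 3) and had no call (log2 fold change 0.036, edgeR FDR 0.392). With total count scaling this small value was -0.042. RAD21, the cohesin subunit that closes the ring, rose from 735 ± 6.63 to 1151 ± 24.9 CPM (log2 fold change 0.65, edgeR FDR 1.49e-13). RAD21 lies on chromosome 8, and the log2 fold changes of its 7 neighbours within 2 Mb whose mean log2 CPM reached 1 had a median of 0.58, 6 genes being higher and 1 lower. PDS5A, a cohesin regulator, was higher (log2 fold change 0.29) and CDCA5, which protects cohesin on replicated DNA, was lower (-0.28).

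In the list of silencing and DNA methylation genes, 6 of 21 were higher and 5 lower, beside the same 25.8% and 22.1% of all genes, with a median log2 fold change of -0.041. REST, a repressor of neuronal genes, rose from 92.4 ± 1.60 to 157.9 ± 5.08 CPM (log2 fold change 0.77, edgeR FDR 2.45e-13). The 14 neighbours of REST on chromosome 4, chosen as for RAD21, had a median of 0.11, 6 of them higher and 3 lower. TET1, which oxidizes methylated cytosine, was higher (log2 fold change 0.62, edgeR FDR 4.75e-08). UHRF1, which guides maintenance methylation, was lower (log2 fold change -0.48, edgeR FDR 4.34e-09), as was DNMT3B, a methyltransferase that acts on unmethylated DNA (log2 fold change -0.22, edgeR FDR 2.79e-04). ZNF644, a partner of histone methyltransferases, was higher (log2 fold change 0.35). SMCHD1 had a log2 fold change of -0.095 and an edgeR FDR of 0.0221 and had no call.

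The list of signalling partners holds partners of the protocadherin tails and genes further downstream, such as RAC1 and PAK1. Of its 16 tested genes, 8 were higher and 1 was lower, against 25.8% and 22.1% of all genes, with a median log2 fold change of 0.14. By DESeq2 5 were higher and 0 lower, against 22.5% and 18.8%. PTK2, the focal adhesion kinase that gamma and alpha tails bind, rose from 162 ± 3.80 to 270 ± 9.71 CPM (log2 fold change 0.73, edgeR FDR 3.36e-13), while its 10 neighbours chosen in the same way on chromosome 8 had a median of 0.19, 4 of them higher and 1 lower. PAK1, a kinase downstream of RAC1, rose from 220.0 ± 4.63 to 355 ± 2.44 CPM (log2 fold change 0.69, edgeR FDR 1.15e-13). The 32 neighbours of PAK1 chosen in the same way on chromosome 11 had a median of 0.22, 18 of them higher and 6 lower. BRK1 and NCKAP1, subunits of the WAVE complex that drives actin branching, were higher by 0.33 and 0.21 on the log2 scale. Of 8 genes for enzymes, or subunits of enzymes, that cleave protocadherins at the membrane, 4 were higher and 0 lower. Among all genes 25.8% were higher and 22.1% lower, 47.9% in either direction. The median log2 fold change of the 8 genes was 0.31. Among those higher were APH1A (0.56) and NCSTN (0.36), subunits of the gamma-secretase complex, and the sheddase ADAM17 (0.28).

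**Figure D4:**
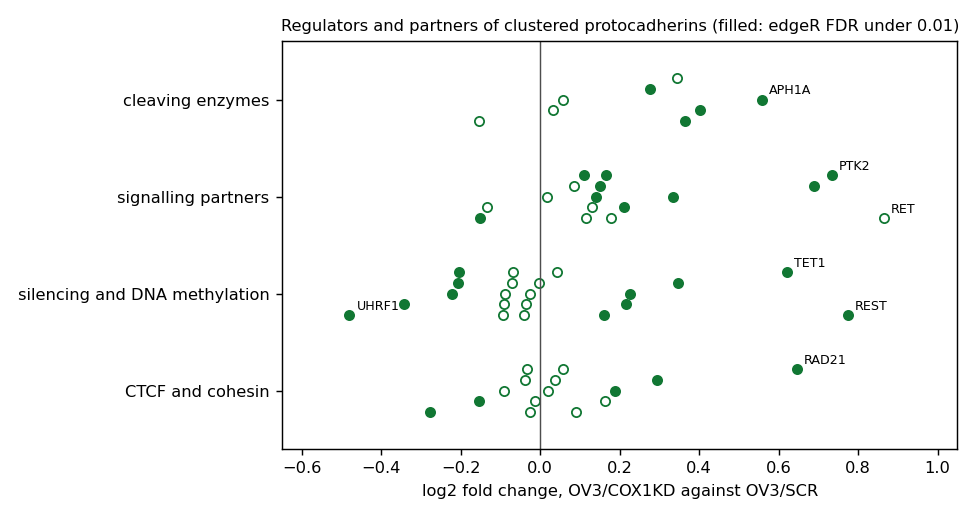
Log2 fold change of OV3/COX1KD against OV3/SCR for the tested genes of the CTCF and cohesin list, the silencing and DNA methylation list, the signalling partners and the cleaving enzymes, 1 point per gene, filled where the edgeR FDR was under 0.01. REST, at 0.77, is the filled point farthest to the right and UHRF1, at -0.48, the one farthest to the left, and the open point at 0.86 is RET, a receptor kinase with no call.

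The clusters span 726.8 kb, from chr5:140165721 to 140892544. Of 34 tested genes that start within 1 Mb of this stretch, 6 were higher and 11 lower, with a median of -0.18 on the log2 scale. Of 73 within 5 Mb, 23 were higher and 18 lower, with a median of -0.0061. Over all genes tested, 25.8% were higher and 22.1% lower, with a median of -0.0087. Whether the neighbours differ from this background was not tested. TAF7, a subunit of the general transcription factor TFIID that lies between the beta and gamma clusters, was the only one of 9 other genes inside the stretch that was tested. It had 2009, 1898 and 1841 counts in OV3/SCR and 2273, 2259 and 2409 in OV3/COX1KD and was higher (log2 fold change 0.30, edgeR FDR 4.29e-07), opposite to PCDHGC3. The largest falls within 1 Mb lay beyond the gamma end. RELL2, a relative of RELT, had 82, 74 and 76 counts in OV3/SCR and 13, 11 and 10 in OV3/COX1KD (log2 fold change -2.72, SE 0.22, edgeR FDR 1.80e-09). ARAP3, a GTPase-activating protein, had 378, 383 and 377 counts against 108, 104 and 132 (log2 fold change -1.69, edgeR FDR 3.50e-12). FCHSD1 beside them and NRG2, a neuregulin upstream of the alpha cluster, had log2 fold changes of -0.83 and -0.89. RELL2 and FCHSD1 overlap on opposite strands, and other genes cover 38.3% and 16.3% of their exon bases. The strand setting is not given, so part of their counts is uncertain. The genes beyond the gamma end did not all fall, since PCDH1, also on that side, was at -0.029 (edgeR FDR 0.591).

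**Figure D5:**
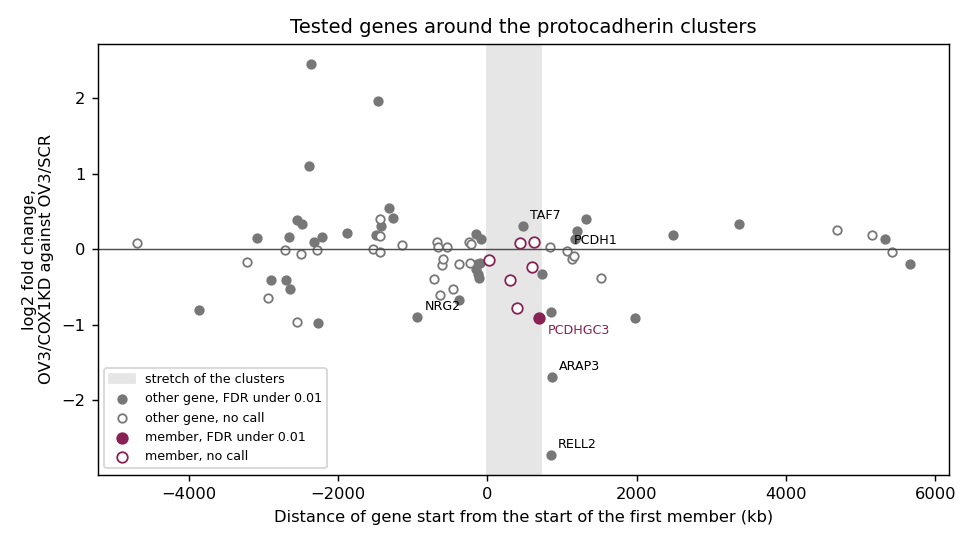
Log2 fold change of tested genes against the distance of their start from the start of the first clustered protocadherin, in kb, with the stretch of the clusters shaded, members in purple and other genes in grey, and filled points for an edgeR FDR under 0.01. PCDHGC3, at -0.91, lies at the right edge of the stretch, RELL2 (-2.72) and ARAP3 (-1.69) lie beyond it, and TAF7 (0.30) lies inside it.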

How the data were processed

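RNA-seq libraries were made from total RNA of OV3/SCR and OV3/COX1KD cells with a TruSeq kit, 3 per condition. Per the labels and the paper's methods, the authors aligned reads to hg19 (GRCh37) with TopHat2 and counted them per gene with HTSeq, and the deposited values are raw counts without normalization. The annotation, the strand setting and the treatment of shared exons are not given in the sources used here. Groups and replicate numbers came from the sample titles.

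Differences were tested with edgeR 4.0.16 in R 4.3.3. After TMM scaling, filterByExpr left 17309 of 34811 genes, to which glmQLFit and glmQLFTest were applied with a single factor, the condition. P-values were adjusted by Benjamini-Hochberg over all these genes. A call needed an FDR under 0.01, and the study's fold change above 2.5 was applied as well. Alternatives were DESeq2 1.42.0, glmTreat, the replicate number as a block, other scalings (RLE size factors or total counts), other filters (none, or 10 counts or more in each library) and leaving out each library. The edgeR fit was tested on simulated data. There, recovery of changes was required only of genes more abundant than the tested members (mean log2 CPM of -1.26 to 0.57).

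Members, gene lists and tests were chosen with earlier results of these data known. Per-library counts are given for the 5 members with the highest mean CPM in each cluster, any member past both thresholds and the C-type members. Other members named were chosen after their values were seen. From each gene list, CTCF, RAD21, SMCHD1, REST, DNMT3B and up to 4 genes with the largest called change are named, except 1 gene that is not reported here. The background of equally scarce genes, the counts of members that do not overlap, the sums without PCDHGC3, the neighbours of RAD21, REST, PTK2 and PAK1 and the search for repeated 50-base windows were chosen after seeing the data. Levels per kb were planned over exon bases covered by no other gene, but these lengths were very uneven in the annotation, and after that was seen own coding bases were used instead. Gene models were GENCODE 44 lifted to GRCh37, in which 33729 of the 34811 rows had an entry. Of the annotated protein-coding members, PCDHA2, PCDHA8, PCDHA12, PCDHA13, PCDHB1, PCDHGB5 and PCDHGC5 were not analysed here.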

Additional observations from a re-analysis of the deposited data

How the results depend on the processing

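PCDHGC3 kept its direction and its call in all 12 alternatives that could give it a value, and the family kept 1 lower and 0 higher calls. The counts of most members were too small for a direction. The log2 fold change of PCDHA4 lay between -0.30 and 0.053 when each library was left out, turning to 0.020 without OV3/SCR replicate 1 and to 0.053 without OV3/COX1KD replicate 1. PCDHB14 lay between -0.17 and 0.40, turning to -0.17 without OV3/SCR replicate 3 and to -0.0037 without OV3/COX1KD replicate 2, and PCDHGB7 lay between -0.13 and 0.23, turning to -0.13 without OV3/COX1KD replicate 1. CTCF turned to -0.042 with total count scaling, which moved the median of all genes to -0.087. HDAC8 lost its call with total count scaling (edgeR FDR 0.0481) and without OV3/SCR replicate 2 (0.0154), and SMCHD1 gained one with total count scaling (-0.17), with at least 10 counts in every library (-0.11) and without OV3/COX1KD replicate 3 (-0.13). In the list of signalling partners DESeq2 called 5 genes higher and 0 lower, where edgeR called 8 and 1. With PCDHGC3 left out of the sum, chosen after seeing the data, the gamma cluster turned from 84.8% to 106% of OV3/SCR and the family moved from 82.8% to 91.5%. The cause of these changes was not tested. The other cluster sums and list counts stayed within their spread or within 1.5 times. The replicate numbers did not pair the samples, since same-numbered libraries deviated together with correlations across genes of only 0.0045, 0.042 and 0.0090. With the replicate block 8233 genes were called in place of 8293, PCDHGC3 had a log2 fold change of -0.91 (edgeR FDR 0.0012), and the block changed no call of a member or a named gene.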
